A study of Homo sapiens with 14 samples.

Results

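NBD1 is the first nucleotide-binding domain of CFTR, the chloride channel that is defective in cystic fibrosis. It was taken here as the 250 residues from Trp401 to Phe650, which make up 16.9% of the residues of the protein. In ribosome profiling, stretches of mRNA covered by a ribosome survive RNase I and are sequenced, so the reads assigned to a residue measure how often ribosomes were found at its codon. NBD1 held 20532 of 132556 CFTR reads (15.5%) over 14 libraries. The libraries came from HEK293, an immortalized line of human embryonic kidney cells, in which a CFTR construct was overexpressed. The 4 groups are named by their construct: WT (n = 5), High-abc (n = 5), High-Leu558 (n = 2), in which the UUA codon of Leu558 became CUC, and WT-Leu558-in-High-abc (n = 2), in which High-abc has the native Leu558 codon back. The constructs differ in synonymous codons and encode 1 protein, but which codons other than that of Leu558 were replaced in High-abc is not given in the sources used here. The endogenous gene lies on chromosome 7 from 117480025 to 117668665 (GRCh38.p14), and the positions below are residues of the protein, not of the genome.

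Each nucleotide-binding domain of an ABC transporter binds ATP through the Walker A and Walker B motifs of its core, and the signature motif of the other domain closes over that ATP. CFTR has a pair of these domains, and NBD1 comes first in the chain, after the first set of membrane spans. Its subdomains fold while ribosomes are still translating it, and deletion of Phe508, in its helical region, is the most common cause of cystic fibrosis. Leu558 lies just after the signature motif. For description NBD1 was divided into a first part (Trp401 to Gly500, with the regulatory insertion and Walker A), a middle part (Thr501 to Arg560, with Phe508, the signature motif and Leu558) and a last part (Ala561 to Phe650, with Walker B).

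NBD1 was covered unevenly and thinly. A library had between 398 and 4926 NBD1 reads, a mean of 1.59 to 19.7 reads per residue, out of 2463 to 32630 CFTR reads (median 6374). Of the 250 residues, 50 had a read in every library, 200 had one in 1 to 13 libraries and 0 had none. A residue without a read can still hold up to 0.122% of reads where depth was lowest and 0.00919% where it was highest, from 3 reads of the library's total, a limit that covers counting error only. The 10 residues most covered over the 4 groups, Leu558 among them, were 4% of NBD1. They held 17.4% to 31.0% of a library's NBD1 reads. In this unevenness NBD1 resembled the whole protein: the median residue had 0.532 times the reads of a library's mean residue (its occupancy) in NBD1 and 0.532 in CFTR, and 2% of NBD1 residues against 2.36% of all residues exceeded an occupancy of 5.

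Ranked by occupancy averaged over the 4 groups, the leading NBD1 residue was Glu608 at 13.1, the rank 6 residue of CFTR. It was followed by Glu449 at 8.55, Lys522 at 7.45, Glu407 at 5.20 and Thr629 at 5.08. Leu558 came sixth at 4.40, a mean that joins an occupancy of 12.7 ± 4.24 (SD, n = 5) in WT, where it ranked 1 in NBD1, with low values in the groups that lack the native codon. Asp579, Glu632, Gly576 and Leu408 completed the 10, between 2.97 and 3.29. Glu608 held 0.364% to 1.15% of CFTR reads in WT libraries, 0.288% to 1.40% in High-abc, 0.894% and 1.00% in High-Leu558, and 1.24% and 1.13% in WT-Leu558-in-High-abc, so no group stood apart from WT there. Of the 10 leading residues of each group, WT and High-abc shared 8, and all 4 groups shared 4, which were Glu407, Glu449, Lys522 and Glu608. As a description over 250 residues, Spearman's rho between the NBD1 profiles of libraries averaged 0.507 within WT, 0.482 within High-abc and 0.468 between them. Without Leu558 and Ala559, its neighbour, these became 0.498, 0.483 and 0.478. The libraries share sequence composition and low depth, which limit any such value.

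**Figure D1:**
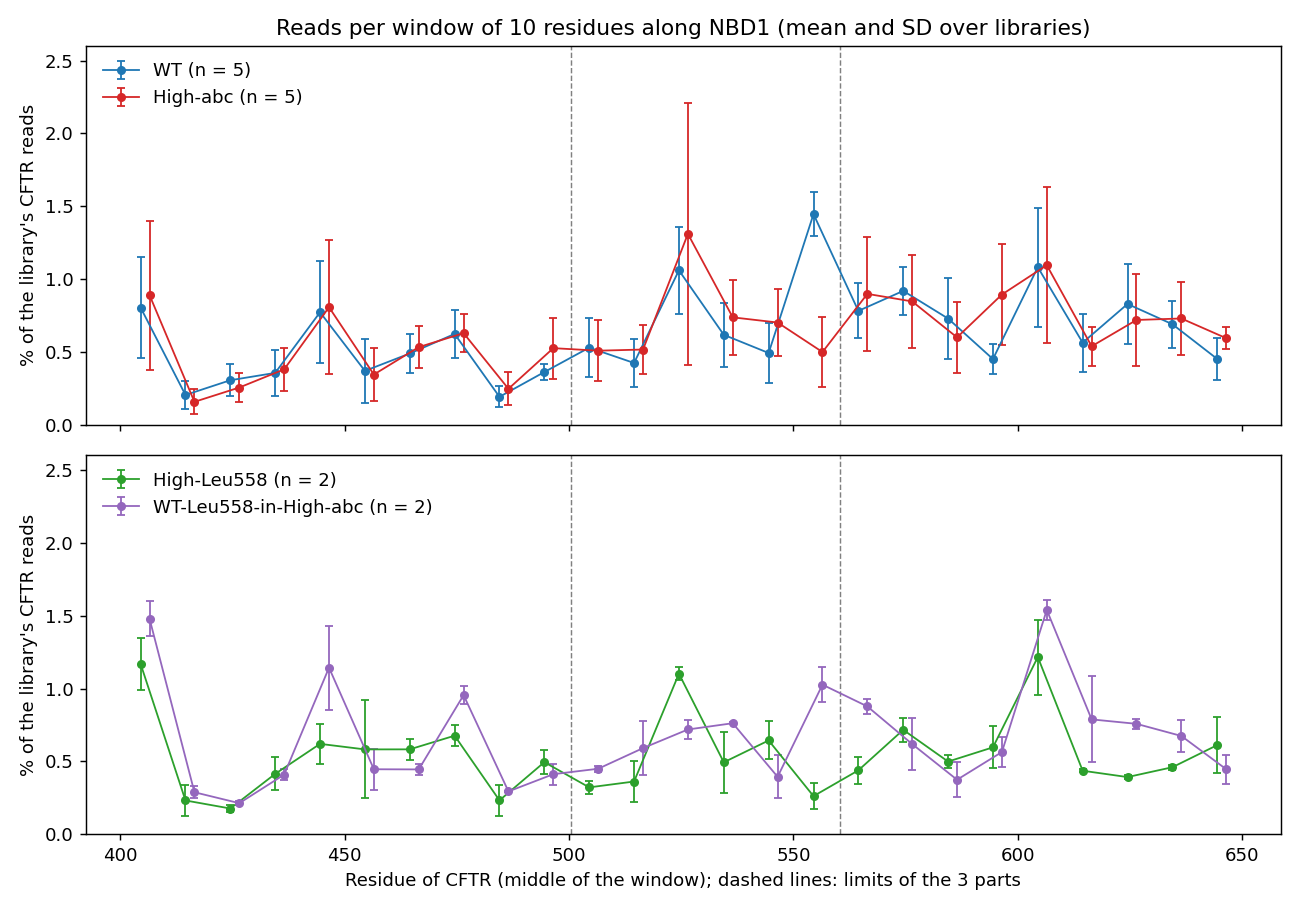
Percent of a library's CFTR reads in each window of 10 residues of NBD1 (y axis) against the residue in the middle of the window (x axis), as mean and SD over libraries, WT and High-abc above and the groups of 2 below. In WT the window Gly551 to Arg560 stands at 1.45% and in High-abc at 0.499%, while most other windows of these groups overlap within their SD.

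In windows of 10 residues, ribosomes were most often found at Ile601 to Leu610, which held 1.23% of CFTR reads as a mean of the 4 groups, then at Trp401 to Glu410 (1.09%), Ile521 to Ile530 (1.05%), Leu441 to Arg450 (0.836%) and Gly551 to Arg560 (0.808%). The least covered window, residues 411 to 420, lies in the regulatory insertion, a segment that CFTR has and related transporters lack, and held 0.221%. Reads per residue in the whole insertion (Gly404 to Leu435) were 0.578 times the mean residue in WT, 0.528 in High-abc, 0.650 in High-Leu558 and 0.871 in WT-Leu558-in-High-abc. Walker A (Gly458 to Thr465), the loop that holds the phosphates of ATP, had 0.837, 0.755, 0.799 and 0.821 in the same order. Walker B (Leu568 to Asp572) had 1.30 ± 0.683 in WT and 0.979 ± 0.766 in High-abc (5 libraries each, ± SD), a difference well within the spread of either group. The signature motif (Leu548 to Gln552) held 0.242%, 0.227%, 0.264%, 0.397% and 0.308% of reads in the WT libraries and 0.198%, 0.103%, 0.122%, 0.186% and 0.140% in the High-abc libraries. These groups did not overlap, at 0.288% ± 0.0683 and 0.150% ± 0.0411 (5 libraries each, ± SD), but the motif was described for its place in the domain and the difference was not tested. How often stretches of like length separate these groups was not determined. The window Leu541 to Gly550, in which the motif begins, had a higher mean in High-abc (0.702%) than in WT (0.493%). A High-abc library had 3 to 20 reads in the motif. High-Leu558 held 0.317% and 0.187% there, and WT-Leu558-in-High-abc 0.178% and 0.188%.

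The share of reads that fell in NBD1 was compared first. It was 14.9%, 15.1%, 15.0%, 14.6% and 18.2% in the WT libraries and 15.6%, 13.8%, 17.9%, 16.0% and 16.6% in the High-abc libraries. The groups overlapped, with means of 15.5% ± 1.49 and 16.0% ± 1.50 (5 libraries each, ± SD), and the log2 difference of 0.04 (SE 0.09) gave p = 0.659 in a two-sided exact permutation test. Without High-abc replicate 3 the difference was -0.0044. High-Leu558 had 13.8% and 13.6%, below every WT library, and WT-Leu558-in-High-abc had 16.9% and 16.4%. Of the 35 tests made of 7 shares in 5 comparisons, 0 passed, with adjusted p-values of 0.513 or more (Benjamini-Hochberg over the 35) and 0 with an unadjusted p under 0.05. With 5 libraries against 2 the smallest two-sided exact p is 0.0952, so no call was possible there, and 5 against 5 can reach 0.00794.

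By group mean, with Leu558 and Ala559 counted, the first part was the least dense of the 3 in each group. It had 0.663 times the mean residue's reads in WT, 0.706 in High-abc, 0.767 in High-Leu558 and 0.900 in WT-Leu558-in-High-abc, and it was below 1 in all of them. In the same order, the middle part had 1.13, 1.05, 0.785 and 0.972, and the last part had 1.07, 1.14, 0.882 and 1.09. Without Leu558 and Ala559 the middle part had 0.899, 1.08, 0.802 and 0.835, so in WT-Leu558-in-High-abc it was then less dense than the first part. As shares, WT averaged 4.48% ± 0.546 of reads in the first part and High-abc 4.77% ± 0.886 (5 libraries each, ± SD), with overlap. In WT-Leu558-in-High-abc it held 5.87% and 6.30%, above all WT libraries, which reached 5.24%, and the log2 difference from WT was 0.45 (SE 0.09, exact permutation p = 0.0952, the smallest possible). In High-Leu558 the first part held 5.49% and 4.87%. The last part held 6.50% ± 0.780 in WT, 6.92% ± 0.286 in High-abc (5 libraries each, ± SD), 5.02% and 5.71% in High-Leu558, and 7.11% and 6.17% in WT-Leu558-in-High-abc. High-abc and High-Leu558 did not overlap in the last part (log2 difference 0.37, SE 0.10, exact permutation p = 0.0952, the smallest possible). There edgeR's test on counts summed over regions gave 0.37 (SE 0.11, adjusted p = 0.0498). That adjustment covered the regions of this 1 comparison only, a smaller family than the 35 share tests.

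The middle part holds Leu558. It had 4.14%, 4.21%, 4.91%, 4.31% and 5.27% of reads in the WT libraries and 3.55%, 3.17%, 6.58%, 4.36% and 3.71% in the High-abc libraries. WT-Leu558-in-High-abc had 3.93% and 3.95%, and High-Leu558 had 3.33% and 3.04%. All libraries of both groups of 2 lay below all WT libraries, and High-abc overlapped with WT. Its mean was lower than that of WT, with -0.14 as the difference of log2 shares (SE 0.20, exact permutation p = 0.508), and its highest library, replicate 3, stood above every other library.

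Leu558 and Ala559 alone made up 23.3% ± 5.90 of the middle part's reads in WT and 1.23% ± 0.425 in High-abc (5 libraries each, ± SD). Of all NBD1 reads they were 6.81% ± 1.48 in WT, 0.308% ± 0.0730 in High-abc (5 libraries each, ± SD), 0.539% and 0.0723% in High-Leu558, and 4.51% and 3.53% in WT-Leu558-in-High-abc. Every library with the native codon of Leu558 was above every library without it. When the pair was left out, WT averaged 3.52% ± 0.620 in the middle part and High-abc 4.23% ± 1.36 (5 libraries each, ± SD), and the log2 difference turned from -0.14 to 0.23 (SE 0.22, exact permutation p = 0.357). Without High-abc replicate 3 the differences were -0.31 with the pair and 0.058 without it. High-Leu558, at 3.25% and 3.03%, and WT-Leu558-in-High-abc, at 3.17% and 3.37%, then overlapped with WT, whose libraries ran from 2.82% to 4.37%. NBD1 as a whole without the pair held 14.5% ± 1.57 in WT and 15.9% ± 1.50 in High-abc (5 libraries each, ± SD), so that log2 shares differed by 0.13 (SE 0.09, exact permutation p = 0.151). High-Leu558, at 13.8% and 13.6%, lay within the range of the WT libraries once the pair was removed.

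**Figure D2:**
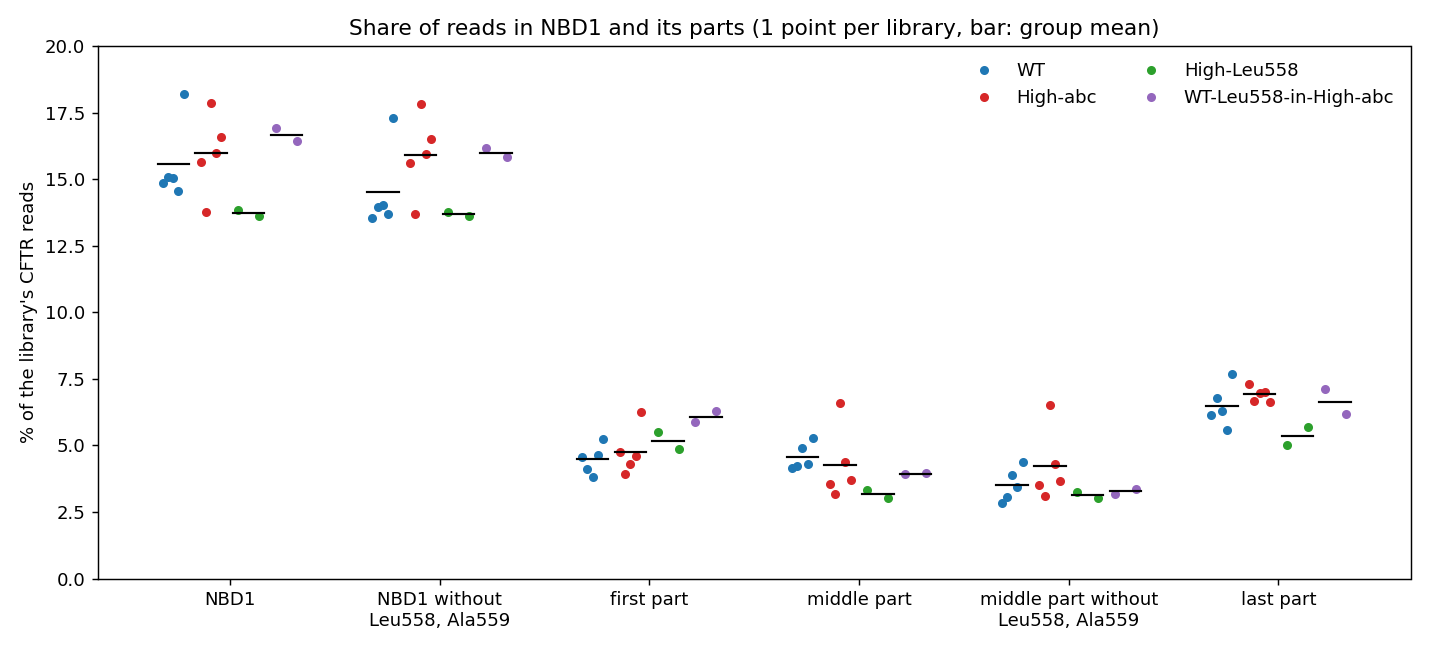
Percent of each library's CFTR reads (y axis) in NBD1 and its parts, with and without Leu558 and Ala559 (x axis), by group. Each point is 1 library and each bar a group mean; in the middle part the High-abc mean lies below that of WT with the pair and above it without, and the points overlap both times.

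NBD1 was set against NBD2, the other nucleotide-binding domain, taken as the last 280 residues of the protein. Reads per residue were 0.923 ± 0.0868 times the mean residue in NBD1 and 0.826 ± 0.113 in NBD2 (SD, n = 14 libraries). The ratio was above 1 in 11 of 14 libraries, with a mean log2 ratio of 0.17 (SD 0.25) and p = 0.0267 in a two-sided exact sign-flip permutation test that takes the libraries as independent. The WT and High-abc libraries of one number are paired, and with each such pair averaged to 1 unit the ratio was above 1 in 6 of 9 units, with a mean log2 ratio of 0.14 and p = 0.148 in the same exact test. The call over 14 libraries was also lost without WT replicate 2 (exact sign-flip p = 0.0532), WT replicate 5 (0.0510) or High-abc replicate 2 (0.0520). It was above 1 in 4 of 5 WT libraries (mean log2 ratio 0.18), 5 of 5 High-abc libraries (0.28) and both of WT-Leu558-in-High-abc (0.26). It was below 1 in both libraries of High-Leu558, with a mean log2 ratio of -0.22. Within a group the exact sign-flip test gave p = 0.3125 in WT and 0.0625 in High-abc, the latter the smallest that 5 libraries allow. The difference between groups was not tested.

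Single residues were tested with edgeR on the whole protein less its ends. The filter on low counts kept 314 residues, 61 of them in NBD1, which held 62.1% of its reads. Between High-abc and WT, 2 residues passed an adjusted p of 0.05, which is 0.637% of those tested, and both lie in NBD1: Leu558 (log2 change -4.88, SE 0.65, adjusted p = 2.46e-07) and Ala559 (-2.88, SE 0.66, adjusted p = 0.0103). Their group levels were 0.860% and 0.0297% of reads at Leu558 and 0.188% and 0.0190% at Ala559, WT first. Without High-abc replicate 3 the count was 4, and it was 3 without High-abc replicate 2, WT replicate 1 or WT replicate 3. In High-Leu558 against WT, 1 residue passed (0.318%), Leu558 at -5.43 (SE 0.96, adjusted p = 0.00022). Without High-Leu558 replicate 2, edgeR called 0 residues there. In WT-Leu558-in-High-abc compared with High-abc, 2 passed (0.637%), with rises of 3.26 (SE 0.74) at Leu558 and 3.87 (SE 0.73) at Ala559 on the log2 scale and adjusted p-values of 0.00777 and 0.000722, and without WT-Leu558-in-High-abc replicate 1 there were 0. In WT-Leu558-in-High-abc compared with WT 0% passed, with 0 residues called by DESeq2 too and 9 of 61 NBD1 residues (14.8%) at an unadjusted p under 0.05 in edgeR, against 7 of 253 outside it (2.77%) and 5.1% of all 314.

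The last comparison, High-abc against High-Leu558, sets apart constructs that both carry a replaced codon at Leu558, and 1 residue passed (0.318%). That was Ser557, the residue before it, with 0.0901%, 0.394%, 0.244%, 0.121% and 0.0299% of reads in the High-abc libraries and 0 reads in both High-Leu558 libraries. All High-abc libraries were above 0, and the mean of 0.176% was at least 6.11-fold higher than the High-Leu558 floor of 3 reads per library (edgeR adjusted p = 0.0469). Ser557 passed the filter through High-abc replicates 2 and 3, libraries of the group in which it was high, so the filter was not neutral here. High-abc replicate 5, at 0.0299%, was at its own limit of 3 reads. The call is a narrow one. It was lost with library totals in place of TMM factors (adjusted p = 0.0552), and without High-abc replicate 4 (0.101), High-Leu558 replicate 1 (0.595) or High-Leu558 replicate 2 (0.998), and Ser557 was not among the residues kept by the filter without High-abc replicate 2 or 3. WT held 0% to 0.0520% there, which overlapped with High-Leu558. With the native codon back in High-abc, the 2 libraries held 0.109% and 0.0724%.

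Of the neighbours, Ile556 held at most 0.0863% in any library and Arg560 at most 0.122%, and neither was covered enough to be tested. Ala561, the first residue after the middle part, held 0.0346%, 0.0736%, 0.113%, 0.155% and 0.171% in the WT libraries, 0.180%, 0.308%, 0.325%, 0.214% and 0.110% in High-abc, 0.0373% and 0.0591% in High-Leu558, and 0.178% and 0.507% in WT-Leu558-in-High-abc. Its log2 change between High-abc and WT was 1.08 (SE 0.54, edgeR adjusted p = 0.969). Both groups built on High-abc had higher means there than both groups built on WT, though WT and High-abc overlapped.

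Of the 144 windows of 10 residues, 1 fell between High-abc and WT (0.694%) and 1 between High-Leu558 and WT (0.694%), both times Gly551 to Arg560. It held 1.23% to 1.59% of reads in the WT libraries, 0.250% to 0.805% in High-abc and 0.326% and 0.197% in High-Leu558, with no overlap with WT. The log2 changes were -1.55 (SE 0.33, adjusted p = 0.0148) and -2.53 (SE 0.47, adjusted p = 0.00369). The first was lost without High-abc replicate 1, 4 or 5 and with windows shifted by 5 residues, and 2 windows passed without High-abc replicate 2, and the call for High-Leu558 was lost without either of its libraries. In each of the other 3 comparisons 0% of windows passed in edgeR and 0 in DESeq2, with 1, 1 and 3 of 25 NBD1 windows (4%, 4% and 12%) at an unadjusted p under 0.05 in edgeR, against 5.56%, 3.47% and 3.47% of all 144. With Leu558 and Ala559 set to 0 reads in every library, 0 windows passed in any comparison, with 1 NBD1 window and 2 others at an unadjusted edgeR p under 0.05 in High-abc against WT, and Gly551 to Arg560 gave 0.18 (SE 0.35, adjusted p = 0.999) in High-abc against WT and -0.91 (SE 0.47, adjusted p = 0.933) in High-Leu558 against WT. Both window calls were thus lost without these residues, while a fall of -0.91 that did not pass remained in High-Leu558 against WT.

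The windows with the next smallest p-values did not pass in edgeR. Between High-abc and WT that was Val591 to Arg600 (log2 change 1.03, SE 0.30, adjusted p = 0.162). Glu621 to Phe630 held 0.829% ± 0.275 in WT and 0.719% ± 0.318 in High-abc (5 libraries each, ± SD), and 0.401% and 0.384% in High-Leu558 (log2 change -1.14 relative to WT, SE 0.44, adjusted p = 0.847; 0.97 for High-abc over High-Leu558, SE 0.44, adjusted p = 0.907). Ala561 to Leu570, which holds the start of Walker B, averaged 0.899% in High-abc and 0.439% in High-Leu558 (1.14, SE 0.42, adjusted p = 0.907). For WT-Leu558-in-High-abc over High-abc, Gly551 to Arg560 gave 1.08 (SE 0.40) and Leu541 to Gly550, with means of 0.394% and 0.702%, gave -0.77 (SE 0.38), both at an adjusted p of 0.703. In WT-Leu558-in-High-abc, Leu581 to Cys590 averaged 0.374% against 0.729% in WT (-0.93, SE 0.41), and Ile471 to Gly480 0.955% against 0.623% (0.59, SE 0.30), both with an adjusted p of 0.858.

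The replicate numbers of WT and High-abc pair their libraries, as judged from the data. With the replicate number as a block in all 14 libraries, High-abc against WT gave 4 NBD1 residues and 2 windows in place of 2 and 1. The added residues were Tyr569, in Walker B (log2 change 2.35, SE 0.63, edgeR adjusted p = 0.0430), and Met595 (2.05, SE 0.55, adjusted p = 0.0430), and the added window was Val591 to Arg600 (0.95, SE 0.23, adjusted p = 0.0490). When the block was fitted to these 2 groups only, on the same residues and windows, they gave adjusted p-values of 0.215, 0.198 and 0.0844 and only Leu558, Ala559 and their window passed. At Val591 to Arg600 the WT libraries had 0.398%, 0.325%, 0.604%, 0.431% and 0.497% and the High-abc libraries 0.992%, 0.308%, 1.18%, 1.12% and 0.868%. High-abc replicate 2 lay below every WT library there and the other High-abc libraries above all of them.

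Below the threshold, NBD1 held most of the small p-values of High-abc against WT. At an unadjusted p under 0.05 there were 14 of the 61 NBD1 residues (23.0%) and 2 of the 253 tested outside it (0.791%), against 5.1% of all 314. They stood at 1 of 16 residues tested in the first part, 5 of 15 in the middle and 8 of 30 in the last, all from Gly500 to Lys598. Of the 14, 8 were higher in High-abc and 6 lower, so they did not move NBD1 in 1 direction, and 12 of them did not pass the adjustment. Leaving out each library in turn gave 8 to 15 NBD1 residues (16.9% to 22.2% of those tested) against 0% to 1.89% outside. With no filter on low counts it was 22 of 250 (8.8%) against 28 of 1180 (2.37%), and with the replicate block 14 of 61 against 5 of 253 (1.98%). When the filter and the fit used no other groups than WT and High-abc, 13 NBD1 residues were tested and 1 reached that level, as did 1 of 94 outside. In High-Leu558 against WT it was 6 of 61 in NBD1 (9.84%) and 5 of 253 outside (1.98%), with 3.5% of all residues tested. WT-Leu558-in-High-abc compared with High-abc gave 4 (6.56%) and 8 (3.16%), with 3.82% of all, and compared with WT 9 (14.8%) and 7 (2.77%), with 5.1% of all. High-abc against High-Leu558 gave 8 (13.1%) and 5 (1.98%), with 4.14% of all. Residues of a library are not independent of one another, and the difference between NBD1 and the rest was not tested.

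**Figure D3:**
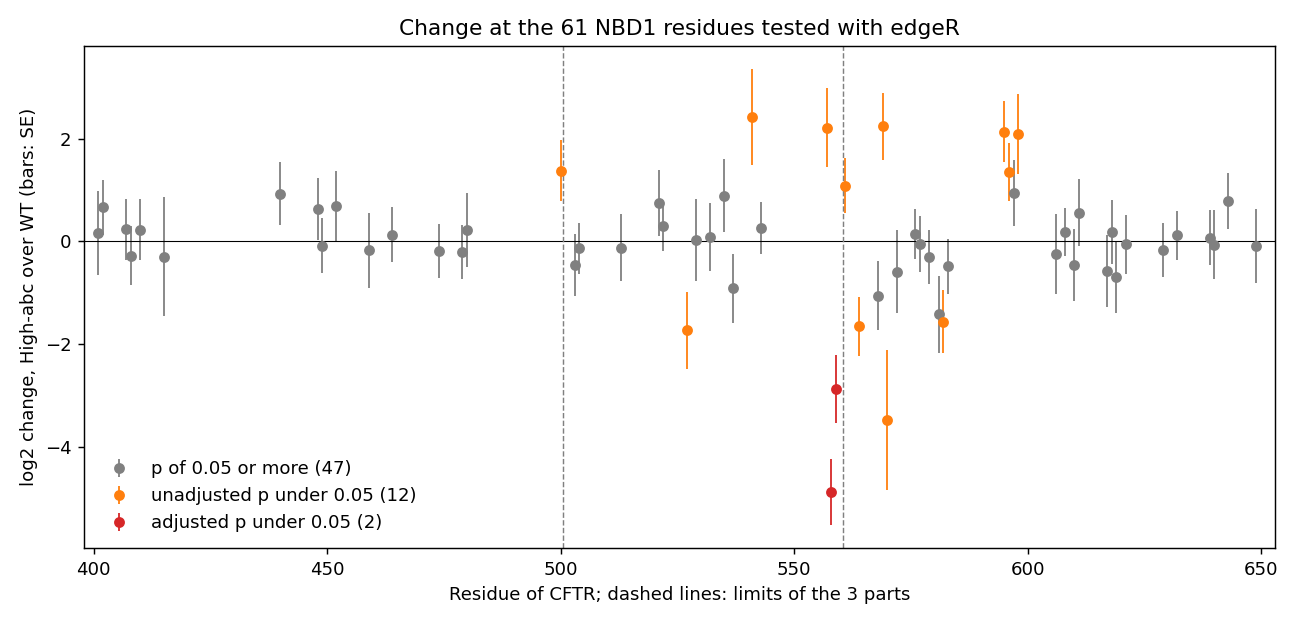
Log2 change of High-abc over WT from edgeR (y axis, bars are SE) at the 61 NBD1 residues tested (x axis, residue number). The 2 residues past an adjusted p of 0.05 and the 12 others with an unadjusted p under 0.05 all lie between Gly500 and Lys598, with points on both sides of 0.

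These residues were picked by their p-values, which favours residues whose libraries do not overlap. How many of all tested residues lack overlap between WT and High-abc was not determined, so Lys564 cannot be ranked against them. Among the residues picked, Lys564 was the only one besides Leu558 and Ala559 at which the WT and High-abc libraries did not overlap. The WT libraries had 0.242%, 0.110%, 0.151%, 0.242% and 0.188% there, and the High-abc libraries had 0.0541%, 0.0343%, 0.0406%, 0.0744% and 0.0599%, with -1.66 as the log2 change (SE 0.58, edgeR adjusted p = 0.312). High-Leu558 held 0.279% and 0.128% at Lys564, and WT-Leu558-in-High-abc 0.0688% and 0.0145%. At Lys564 every library of the WT-based groups was above every library of the High-abc-based groups, with 2 libraries in each of the smaller groups. The cause was not tested. Tyr569, in Walker B, held 0% to 0.113% in WT, 0.0812% to 0.445% in High-abc, 0.00932% and 0.0197% in High-Leu558, and 0.189% and 0.159% in WT-Leu558-in-High-abc, with overlap between WT and High-abc (log2 change 2.24, SE 0.66, edgeR adjusted p = 0.0970). Met595 held 0.0173% to 0.104% in WT and 0.0812% to 0.400% in High-abc (2.13, SE 0.59, adjusted p = 0.0745), with 0.0559% and 0.0394% in High-Leu558 and 0.0860% and 0.101% in WT-Leu558-in-High-abc. Thr582 held 0.174% ± 0.0832 in WT and 0.0509% ± 0.0414 in High-abc (5 libraries each, ± SD; log2 change -1.57, SE 0.61, adjusted p = 0.433), and 0.214% and 0.187% in High-Leu558 against 0.0573% and 0.0289% in WT-Leu558-in-High-abc.

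In the comparisons with groups of 2, the other residues with the smallest p-values did not pass in edgeR. Naming residues by p-value favours those whose libraries do not overlap. How common that is among all tested residues was not determined. Val440 had 0.0520%, 0.126%, 0%, 0.0690% and 0% of reads in the WT libraries and 0.168% and 0.138% in High-Leu558, without overlap (log2 change 1.24, SE 0.74, adjusted p = 0.883). Asn415, with 0% to 0.0693% in WT and 0.0186% and 0.177% in High-Leu558 (1.60, SE 1.22), and Ala596 (1.16, SE 0.68) had the same adjusted p of 0.883, and both overlapped. The middle part's Lys522, one of the residues most covered in all groups, was at 0.275% in both WT-Leu558-in-High-abc libraries, below the 0.394% to 1.66% of High-abc (-1.27, SE 0.68, adjusted p = 0.995). Glu543 stood at 0.126% and 0.0579% there against 0.120% to 0.505% in High-abc (-1.60, SE 0.72), and Glu410 at 0.298% and 0.246% against 0% to 0.339% (1.07, SE 0.69), both at an adjusted p of 0.995 and with overlap.

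Glu583 held 0.0516% and 0.0579% of reads in the libraries of WT-Leu558-in-High-abc, compared with 0.0345% to 0.377% in WT (log2 change -2.10, SE 0.79, edgeR adjusted p = 0.761) and 0.0499% to 0.325% in High-abc (-1.62, SE 0.79, adjusted p = 0.995), with overlap both times. Against WT, the same group was higher without overlap at Tyr569 (2.01, SE 0.76), Ala561 (1.63, SE 0.63) and Lys598 (2.01, SE 0.92) and lower without overlap at Lys564 (-1.95, SE 0.77), and these too had an adjusted p of 0.761. Leu570, in Walker B, held 0.260% and 0.199% in WT replicates 1 and 2 and 0 reads in the other 3 and in both WT-Leu558-in-High-abc libraries, so no fold is given. Between High-abc and High-Leu558 the libraries did not overlap at Tyr569 (3.70, SE 1.01, adjusted p = 0.0955), Met595 (2.29, SE 0.81, adjusted p = 0.540), Lys564 (-1.81, SE 0.68, adjusted p = 0.631), Thr582 (-1.78, SE 0.72, adjusted p = 0.860) or Glu527 (-1.98, SE 0.88, adjusted p = 0.981), and none of these passed. In both comparisons the residues were named for small p-values, which favours a lack of overlap. Its frequency among all tested residues was not determined. Even full separation of 5 libraries from 2 gives 0.0952 at best in a two-sided exact permutation test.

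The 14 residues with an unadjusted p under 0.05 between High-abc and WT were looked at in the libraries of the other 2 groups, a check added after the values were seen. WT-Leu558-in-High-abc is built on High-abc and High-Leu558 on WT, so the difference between them crosses the same background codons. The 2 groups differ at Leu558 in the opposite sense, so Leu558 and Ala559 were set aside. Of the other 12 residues, 10 differed in the same direction as between High-abc and WT with no overlap between the libraries (83.3%), against 68 of all 314 residues (21.7%), 44 of 253 outside NBD1 (17.4%) and 14 of the other 47 NBD1 residues (29.8%). The 10 were Glu527, Leu541, Ser557, Ala561, Lys564, Tyr569, Leu570, Thr582, Met595 and Lys598. Leu570 lay at the counting floor. It had 0 reads in both WT-Leu558-in-High-abc libraries, whose limits of 3 reads are 0.0172% and 0.0434%, against a mean of 0.0290% in High-Leu558. At Gly500 and Ala596 the direction was the opposite and the libraries overlapped, with means of 0.114% and 0.132% in WT-Leu558-in-High-abc and 0.130% and 0.150% in High-Leu558. Of all 314 residues, 47.8% had the same direction in both comparisons. The 2 comparisons share no library, but the filter and the spread in edgeR came from all 14. A residue could thus enter the list through its reads in the libraries used for this check. When the filter and the fit used only WT and High-abc, 13 NBD1 residues were tested and 1 had an unadjusted edgeR p under 0.05. With 2 libraries against 2 the separation itself was not tested, so the 10 of 12 are a description.

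**Figure D4:**
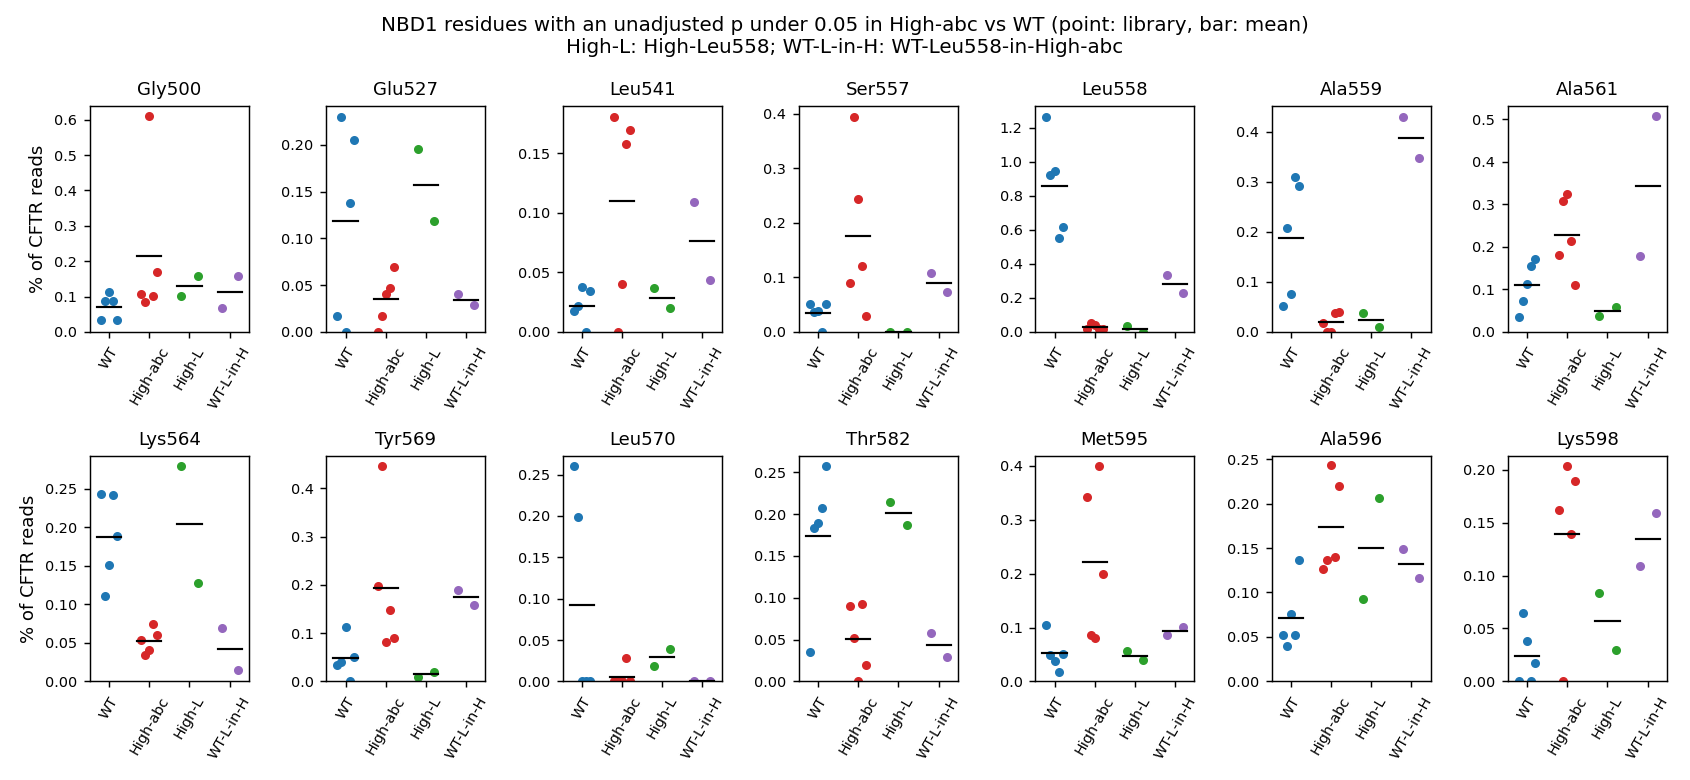
Percent of CFTR reads (y axis) in each library at the 14 NBD1 residues with an unadjusted edgeR p under 0.05 between High-abc and WT (1 panel each, own scale from 0), by group (x axis). Points are libraries and bars group means; at Lys564 all libraries of WT and High-Leu558 lie above all those built on High-abc, while at Leu558 and Ala559 the libraries with the native codon are the high ones.

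Phe508 itself was scarcely covered. It had 13 reads in all, in 7 of 14 libraries, which ranked it 214 of 250 in NBD1, with at most 0.0406% of reads in any library. Its neighbours Ile507, with 17 reads, and Gly509, with 19, were alike, and Asn505, Val510 and Ser511 had 4, 2 and 9. The 11 residues from Lys503 to Asp513 together held 0.398%, 0.530%, 0.869%, 0.414% and 0.856% of reads in the WT libraries and 0.397%, 0.411%, 0.812%, 0.381% and 0.749% in the High-abc libraries. They held 0.298% and 0.443% in High-Leu558, and 0.539% and 0.651% in WT-Leu558-in-High-abc. The groups overlapped in all 5 comparisons, with log2 differences from -0.67 to 0.52 and exact permutation p-values from 0.286 to 0.952. Between High-abc and WT the difference was -0.16 (SE 0.34, exact permutation p = 0.540), and it ran from -0.32 (without High-abc replicate 3) to -0.011 (without WT replicate 3) when 1 library was left out. By replicate number the High-abc library was the lower one in 5 of 5 pairs, and the exact paired sign-flip gave p = 0.0625, the smallest that 5 pairs allow and 0.603 after adjustment.

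Most reads of the stretch lay at its ends. Glu504 had 283 reads, Lys503 145, Asp513 123 and Tyr512 62. Lys503 held 0.0693%, 0.0889%, 0.529%, 0.0345% and 0.377% in the WT libraries and 0.0901%, 0.0514%, 0.447%, 0.102% and 0.130% in High-abc, so that replicate 3 was the highest library in both groups. High-Leu558 held 0.0466% and 0.0394% at Lys503, which edgeR put at -2.16 relative to WT on the log2 scale (SE 0.88, adjusted p = 0.883), and WT-Leu558-in-High-abc held 0.0860% and 0.101%. Glu504 was more even, between 0.113% and 0.325% in every library. Of the 11 residues, Lys503, Glu504 and Asp513 passed the filter on low counts, and in none of the 5 comparisons did one of them pass an adjusted p of 0.05 in edgeR. The window Thr501 to Val510, which holds Phe508, had 0.530% ± 0.203 in WT and 0.509% ± 0.209 in High-abc (5 libraries each, ± SD). A change at Phe508 alone was not detectable at this depth.

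**Figure D5:**
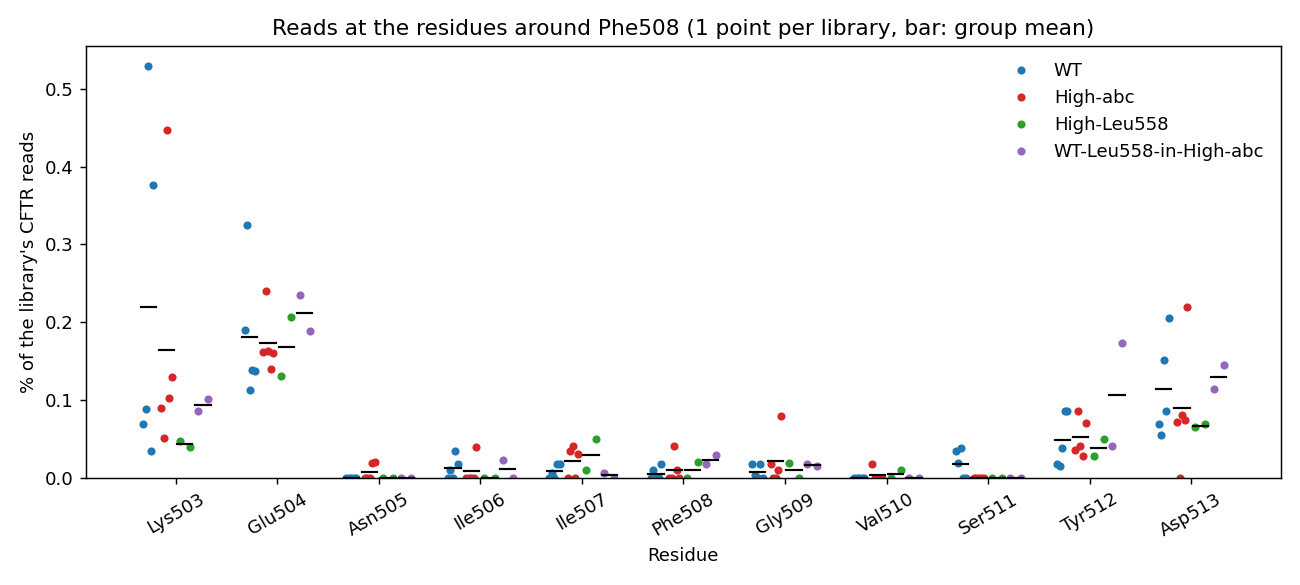
Percent of each library's CFTR reads (y axis) at the 11 residues around Phe508 (x axis), by group. Points are libraries and bars group means; Phe508 and its nearest neighbours lie near 0 in all groups, and the reads gather at Lys503, Glu504 and Asp513.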

How the data were processed

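Ribosome footprints of 14 libraries were made with RNase I, linker ligation, cDNA circularization, rRNA depletion and PCR, per the labels' protocols. The deposited files list, per the file headers, a read count and a percent of CFTR reads per residue. The deposited percent was, within 0.0005, the deposited count as a percent of the library's sum, so the analysis used counts alone, with residues not listed taken as 0. HISAT2 and hg38 are named without version in the submitters' processing notes. How reads were placed on residues is not given in the sources used here. No molecular identifiers are mentioned, so limits cover counting error only. Residue names are those of the human protein and were not read from the deposited files. The amino acid sequence was not used here, so no profile by residue type was made.

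The 20 residues at each end were set aside. The other 1440, and windows of 10 residues, were tested with edgeR 4.0.16 (R 4.3.3, limma 3.58.1), which scaled by TMM, filtered with filterByExpr and fitted all 14 libraries by quasi-likelihood, 1 coefficient per group. P-values from glmQLFTest were adjusted by Benjamini-Hochberg over 314 residues or 144 windows at 0.05. Beyond counting error, the coefficient of variation between libraries of a group was 53.4% for residues and 31.2% for windows. Shares of reads were tested by exact two-sided permutation of log2 shares, with 0.5 reads added to a count of 0, with scipy 1.17.1 (Python 3.11.15, pandas 2.3.3, numpy 2.4.6). On simulated data for High-abc against WT (10 runs of 1440 residues, 200 changed), 98.5% of tested log2 changes of 3 were found and 5.21% of calls were false. Domain and motif limits are textbook approximations.

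Named were the residues from 556 to 561 and 503 to 513, the 10 most covered of NBD1, those past the threshold and the 3 smallest p-values in each direction per comparison; likewise the leading and smallest-p windows. The region, lists and tests were chosen with earlier results of these data known. Alternatives were other scalings, filters, windows and limits, DESeq2 1.42.0, the 2 groups alone, a replicate block and each library left out.

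WT and High-abc libraries with equal numbers deviated together from their group means (r = 0.467, 0.373, 0.531, 0.505 and 0.402 in the 5 pairs, median -0.139 over unequal numbers), so numbers were treated as pairs for these groups. The labels do not say whether replicates were separate cultures, so p-values measure the spread between these samples only, and that may be technical. Identical libraries: 0 pairs.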

Additional observations from a re-analysis of the deposited data

Results flagged for a closer look

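In groups of 5, the highest or lowest library was compared with the gap to its nearest neighbour (Dixon's test at 95%), which by chance marks about 1 in 20 groups, and 7 of 48 sets were marked. WT replicate 5 had 18.2% of its reads in NBD1, against 14.6% to 15.1% in the other WT libraries, and 17.3% without Leu558 and Ala559, against 13.5% to 14.0%. WT replicate 2 was the deepest library, with 32630 CFTR reads against 2647 to 5839 in the other WT libraries. High-abc replicate 3, the shallowest library, held 1.66% of its reads at Lys522, against 0.394% to 0.548% in the other High-abc libraries, and 0.122% at Arg560, against 0% to 0.0180%. At Gly576 replicate 5 was the low library in both groups, with 0.120% in WT (others 0.260% to 0.302%) and 0.150% in High-abc (others 0.274% to 0.325%). The part of depth or of these libraries in the results was not tested beyond leaving each out in turn.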

How the results depend on the processing

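Depth limits single residues most: 61 of 250 NBD1 residues could be tested. Leaving out 1 library at a time gave 2 to 4 residues in High-abc over WT, 0 to 1 in High-Leu558 over WT and in High-abc over High-Leu558, 0 to 2 in WT-Leu558-in-High-abc over High-abc, 0 to 2 windows in High-abc over WT, 0 to 1 in High-Leu558 over WT, and a log2 NBD1 to NBD2 ratio of 0.14 to 0.20. Shares then turned sign in High-abc over WT for NBD1 (-0.0044 to 0.10) and the first part (-0.021 to 0.15), in WT-Leu558-in-High-abc over High-abc for NBD1 without the pair (-0.040 to 0.055), the last (-0.16 to 0.041) and the middle part (-0.16 to 0.10), and over WT for the last part (-0.067 to 0.14) and around Phe508 (-0.10 to 0.18). The libraries whose absence turned a sign were High-abc replicates 2, 3 and 5, WT replicates 1 and 4 and both of WT-Leu558-in-High-abc.

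Taken alone, groups gave log2 NBD1 to NBD2 ratios of 0.18 (WT), 0.28 (High-abc), 0.26 (WT-Leu558-in-High-abc) and -0.22 (High-Leu558). Limits moved 5 residues towards the N-terminus turned High-abc over WT to -0.0012 (first part), 0.24 (middle) and -0.091 (last), and WT-Leu558-in-High-abc to 0.043 over High-abc and -0.048 over WT in the last part. Moved towards the C-terminus, they turned WT-Leu558-in-High-abc over WT to -0.015 (last part) and 0.014 (middle part without the pair). A stretch of 10 residues either side of Phe508 gave 0.24 for High-abc over WT and -0.059 for WT-Leu558-in-High-abc over High-abc. Without the most covered residue, WT-Leu558-in-High-abc turned to 0.063 (middle part) and -0.031 (NBD1 without the pair) over High-abc, and to -0.091 (last part) and 0.031 (middle part without the pair) over WT. None of these shares passed before or after. edgeR on region counts gave 0.37 for the last part in High-abc over High-Leu558, just past the threshold and the only part and comparison to pass there. Its p-values were adjusted within each comparison, not over all comparisons.

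With the replicate block the residue counts were 4 in High-abc over WT, 3 in High-Leu558 over WT, 5 in WT-Leu558-in-High-abc over High-abc, 6 over WT and 5 in High-abc over High-Leu558, and the window counts 2, 4, 3, 4 and 4. With the block and only the 2 groups, they were 1 residue in High-abc over WT, 3 residues and 4 windows in High-Leu558 over WT, 2 residues in WT-Leu558-in-High-abc over WT and 2 in High-abc over High-Leu558. The block also turned the middle part to 0.23 in WT-Leu558-in-High-abc over High-abc, and without the pair to 0.091 in High-Leu558 over WT, and for WT-Leu558-in-High-abc over WT to 0.15. Pairing by number was not shown for the groups of 2, and in their comparisons the block put 19.0% to 24.9% of the residues outside NBD1 at an unadjusted p under 0.05, so these counts are not particular to NBD1. With WT and High-abc of one number as 1 unit, the log2 NBD1 to NBD2 ratio was 0.14 and no longer past the threshold (exact sign-flip p = 0.148). With only the 2 groups and no block, High-abc over WT gave 1 residue and 0 windows and High-abc over High-Leu558 2 residues. Without TMM, High-abc over High-Leu558 gave 0 residues. Windows shifted by 5 residues gave 0 in High-abc over WT. With Leu558 and Ala559 at 0 reads, High-abc over WT and High-Leu558 over WT gave 0 windows each, and the window Gly551 to Arg560 turned to 0.18 in High-abc over WT. Where fewer residues or libraries were tested that is part of the alternative; otherwise the cause was not tested.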
